A study of Mus musculus with 4 samples.

Results

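The genes described are 7 helix-loop-helix regulators of mouse 2-cell embryos, namely Hes1, Hes6 and Hey1 of the Hes and Hey families and Id1, Id2, Id3 and Id4 of the Id family. They were found by their gene symbol, they are 7 of the 18714 genes in the table of scaled reads, and all 7 were among the 15978 genes tested. They were selected on their fold changes in an earlier look at this same comparison, while mean level, meant for choosing between rows of 1 symbol, was needed for 0 genes. Therefore the fold changes given here describe them and are no independent evidence about the families.

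Embryos of both groups were homozygous for a degron tag on Nelfb (Nelfb dTAG/dTAG) on an outbred ICR background, so the DMSO embryos carry the tag too and no untagged embryos were analysed here. The Nelfb protein is part of negative elongation factor (NELF), a complex that holds RNA polymerase II paused near the start of genes. Zygotes were grown for 30 hours in KSOM medium with 500 nM dTAG-13, a small molecule that recruits a ubiquitin ligase to the tagged protein, or with 0.01% DMSO as vehicle. Each group has 2 libraries of polyadenylated RNA, each from a pool of 3 embryos at the 2-cell stage.

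Hes and Hey proteins are repressors with a basic helix-loop-helix domain. They bind DNA at N-box and E-box sequences, recruit Tle corepressors, and are classical targets of Notch signalling, in which a cleaved receptor joins the DNA-binding protein Rbpj. Id proteins have a helix-loop-helix but no basic region. They pair with E proteins and keep them off DNA, and their genes are classical targets of BMP signalling through Smad1, Smad5, Smad9 and Smad4. Hes1 and the Id genes are also switched on quickly by many growth factors, and paused RNA polymerase II is common at genes of that kind.

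Promoter sequence before the start of transcription was in the RefSeq table for 4 of the 7 genes (GRCm38.p6), but not for Hes1, Hey1 or Id1. It is shown as background, since pausing by NELF takes place next to starts of transcription. A link between these sequences and the fold changes was not tested. Each line gives the 250 bases before an annotated start, 5′ to 3′ on the strand of the gene. The windows of Id2, Id3 and the downstream Hes6 start lie inside the gene spans given below, which begin further upstream. These genes thus have other annotated starts, and which start was used in these embryos was not tested. Capitals mark matches on either strand to any of 8 motifs, and no matches overlap in these windows. The general promoter motifs are the TATA box, spelled TATAAA, and the CCAAT box, spelled CCAAT. The motifs of BMP signalling are the GC element known from BMP-responsive genes, spelled GGCGCC, and the Smad element, spelled CAGAC. The site that Rbpj binds is spelled GTGGGAA. The sites of Hes and other helix-loop-helix proteins are the N-box, spelled CACNAG, and the E-box, spelled CACGTG. The cAMP response element is spelled TGACGTCA.
Id2 (chr12:25096093-25096342, minus strand): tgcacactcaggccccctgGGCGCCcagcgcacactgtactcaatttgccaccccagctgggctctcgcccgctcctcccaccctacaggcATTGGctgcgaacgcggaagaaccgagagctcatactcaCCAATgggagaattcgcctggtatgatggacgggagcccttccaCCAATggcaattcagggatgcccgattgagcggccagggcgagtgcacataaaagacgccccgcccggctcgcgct
Id3 (chr4:136143572-136143821, plus strand): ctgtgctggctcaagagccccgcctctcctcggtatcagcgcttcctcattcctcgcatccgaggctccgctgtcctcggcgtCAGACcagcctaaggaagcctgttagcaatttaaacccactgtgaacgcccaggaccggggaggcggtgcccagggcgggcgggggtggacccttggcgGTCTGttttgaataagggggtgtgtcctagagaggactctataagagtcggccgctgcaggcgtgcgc
Id4 (chr13:48260866-48261115, plus strand): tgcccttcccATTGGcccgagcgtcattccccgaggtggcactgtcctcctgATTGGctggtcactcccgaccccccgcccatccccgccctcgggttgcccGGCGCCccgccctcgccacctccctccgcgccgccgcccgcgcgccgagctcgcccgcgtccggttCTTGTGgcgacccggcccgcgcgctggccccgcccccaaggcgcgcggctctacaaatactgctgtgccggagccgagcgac
Hes6, upstream start (chr1:91414039-91414288, minus strand): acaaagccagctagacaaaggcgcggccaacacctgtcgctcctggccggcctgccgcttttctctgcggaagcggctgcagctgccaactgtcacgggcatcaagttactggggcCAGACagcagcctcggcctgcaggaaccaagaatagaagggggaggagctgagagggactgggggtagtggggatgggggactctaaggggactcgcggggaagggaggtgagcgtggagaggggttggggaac
Hes6, downstream start (chr1:91413223-91413472, minus strand): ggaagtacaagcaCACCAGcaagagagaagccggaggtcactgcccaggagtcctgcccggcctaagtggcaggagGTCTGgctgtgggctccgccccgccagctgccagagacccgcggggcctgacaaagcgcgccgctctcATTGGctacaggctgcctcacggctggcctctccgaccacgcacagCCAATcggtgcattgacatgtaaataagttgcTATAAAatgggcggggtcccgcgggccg

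Id2 held the GC element 1 time and the CCAAT box 3 times. Id3 held the Smad element 2 times and neither of those motifs. Id4 held the GC element 1 time, the CCAAT box 2 times and the N-box 1 time. The window of the downstream Hes6 start held the TATA box, 28 bases before that start, the CCAAT box 2 times, and the Smad element and the N-box 1 time each, and the window of the upstream start held the Smad element 1 time. Over all 32851 promoters of that length in the table, the GC element was found in 9.59%, the CCAAT box in 33.8%, the Smad element in 42.2%, the N-box in 36.7% and the TATA box in 12.4%. The Rbpj site, the E-box and the cAMP response element, found in 5.42%, 6.02% and 1.55% of all promoters, were not among the letters of these 5 windows. GC content was 62.8% for both Id2 and Id3, 75.6% for Id4 and 64.0% and 63.6% for the downstream and upstream starts of Hes6, against a median of 52.4% over all promoters.

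Hes1 and Id2 were much lower in dTAG-13 embryos and were the 2 of the 7 genes that passed the test over all genes. Hes1 had 28.0-fold and Id2 13.3-fold less signal by the ratio of the group means. Id3, Hey1 and Id4 also had lower values in both dTAG-13 libraries than in either DMSO library, by 3.99-fold, 2.38-fold and 1.53-fold between means. They did not pass. With libraries scaled on oocyte transcripts their log2 fold changes were above 0 (0.14, 0.87 and 1.59), against a median of 2.03 over all genes. Id1 and Hes6 overlapped between the groups. Values are scaled reads, which are reads per gene divided by the authors' size factor of the library, and fold changes are log2 differences of scaled reads + 1.

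**Figure D1:**
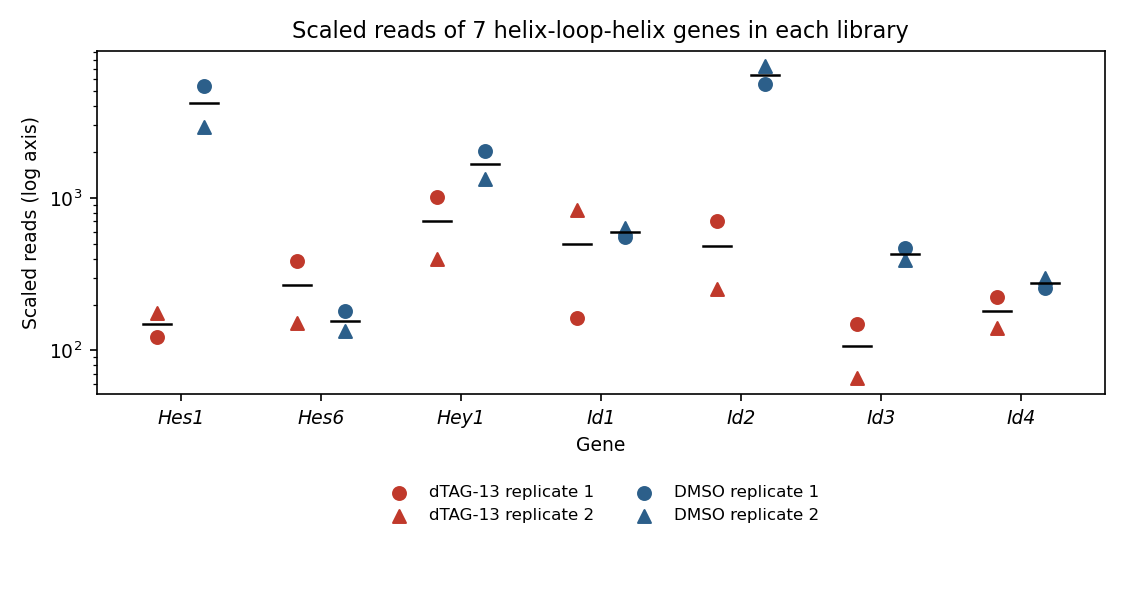
Scaled reads (log axis) of each of the 7 genes in the 2 dTAG-13 libraries (red) and the 2 DMSO libraries (blue); circles are replicate 1, triangles replicate 2 and bars the group means. Hes1 and Id2 stand apart most, and Id1 differs 5.13-fold between the dTAG-13 libraries.

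The gene calls come from limma with Benjamini-Hochberg adjustment over all 15978 genes and a threshold of 0.05. Nothing in the labels states separate parents for each pool, so the p-values reflect differences among pools, which may be technical. At this threshold 9.79% of all genes were called lower and 8.94% higher in dTAG-13 embryos, against 2 of the 7 genes lower and 0 higher. At an unadjusted p under 0.05, 20.6% of all genes and 3 of the 7 were lower. The count of the 7 genes higher was also 0 at an unadjusted p under 0.05 and with edgeR and DESeq2. Over all 15978 genes, edgeR called 1026 higher and DESeq2 called 2406 higher. By limma, 6266 of all genes had an unadjusted p under 0.05 in either direction. Groups did not overlap, with both dTAG-13 libraries lower, for 34.5% of all genes and for 5 of the 7. With both dTAG-13 libraries higher the numbers were 32.2% and 0 of 7, which makes 66.7% of all genes without overlap in either direction. The median over the 7 genes was a log2 fold change of -1.37, against -0.10 for all genes tested. In bulk RNA of whole embryos, fewer transcripts in every cell and fewer cells with the transcript cannot be told apart.

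Hes1 (ENSMUSG00000022528.7, chr16:30064384-30067796, plus strand in GRCm38), a classical Notch target and a repressor that also limits its own transcription, had 123 and 176 scaled reads under dTAG-13, against 5443 and 2932 under DMSO. Both dTAG-13 libraries lay far below both DMSO libraries, with each between 16.7-fold and 44.2-fold under them. These values rest on 198 and 252 reads under dTAG-13 and 4533 and 1806 reads under DMSO. Hes1 averaged 149 ± 37.2 scaled reads under dTAG-13 and 4187 ± 1776 under DMSO (SD, n = 2 each), and fell by 4.75 ± 0.46 on the log2 scale (SE; 95% interval -5.94 to -3.56; adjusted p = 0.0219, limma). Of all genes tested, 4.26% had a lower fold change.

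Hey1 (ENSMUSG00000040289.8, chr3:8663359-8667256, minus strand), a relative of Hes1 that acts downstream of Notch in vessels and heart, had 1013 and 395 scaled reads under dTAG-13, against 2029 and 1323 under DMSO. The dTAG-13 values were lower without overlap, but the higher of them lay within 1.31-fold of the lower DMSO value. Its log2 fold change was -1.37 ± 0.56 (SE, n = 2 each; 95% interval -2.81 to 0.07; adjusted p = 0.141, limma). It had 0.87 with libraries scaled on oocyte transcripts, where the median of all genes was 2.03.

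Hes6 (ENSMUSG00000067071.8, chr1:91411483-91414038, minus strand), which opposes Hes1 activity and promotes neuronal differentiation, had 385 and 151 scaled reads under dTAG-13, against 180.1 and 133 under DMSO. One dTAG-13 library was above both DMSO libraries and the other lay between them. It was the 1 gene of the 7 with a positive log2 fold change, 0.63 ± 0.67 (SE, n = 2 each; 95% interval -1.09 to 2.36; adjusted p = 0.512, limma). Without dTAG-13 replicate 1 the value was -0.040. With libraries scaled on oocyte transcripts it was 2.87 and passed (adjusted p = 0.0338, limma). Under that scaling the median of all genes was 2.03, and 6523 of 15978 genes were called higher.

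Id2 (ENSMUSG00000020644.8, chr12:25093799-25097140, minus strand), an Id gene known in later embryos for its early expression in the trophectoderm, had 709.7 and 254 scaled reads under dTAG-13, against 5531 and 7272 under DMSO. The dTAG-13 libraries differed 2.80-fold from each other, yet each lay at least 7.79-fold under each DMSO library. The counts behind these values were 1141 and 364 reads under dTAG-13 and 4606 and 4480 reads under DMSO. Id2 averaged 482 ± 322 scaled reads under dTAG-13 and 6402 ± 1231 under DMSO (SD, n = 2 each), and fell by 3.90 ± 0.56 on the log2 scale (SE; 95% interval -5.33 to -2.47; adjusted p = 0.0231, limma).

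Id3 (ENSMUSG00000007872.3, chr4:136143497-136145755, plus strand), which often acts together with Id1 in vessel growth, had 149 and 65.6 scaled reads under dTAG-13, against 467 and 389.6 under DMSO. All dTAG-13 values were lower than all DMSO values. Its log2 fold change was -2.10 ± 0.62 (SE, n = 2 each; 95% interval -3.70 to -0.50; adjusted p = 0.0734, limma), so the interval for this gene alone did not reach 0 while the adjusted p missed the threshold. With DESeq2 on the recovered reads it passed at an adjusted p of 0.0358. With libraries scaled on oocyte transcripts its log2 fold change was 0.14, against a median of 2.03 over all genes.

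Id4 (ENSMUSG00000021379.1, chr13:48261228-48266026, plus strand), a marker of spermatogonial stem cells, had 223 and 140.2 scaled reads under dTAG-13, against 257 and 300.3 under DMSO. The groups did not overlap, and the closest libraries differed 1.15-fold. Its log2 fold change was -0.65 ± 0.53 (SE, n = 2 each; 95% interval -2.01 to 0.71; adjusted p = 0.405, limma). The antisense transcript A330033J07Rik shares 82 exonic bases with Id4 and had 0 and 2.09 scaled reads under dTAG-13, against 70.8 and 224 under DMSO. The kit did not mark strand, so reads from the shared bases cannot be told apart.

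Id1 (ENSMUSG00000042745.9, chr2:152736251-152737410, plus strand), the most widely used readout of BMP signalling, had 162 and 833 scaled reads under dTAG-13, against 556 and 635 under DMSO. The dTAG-13 libraries lay on either side of the DMSO libraries. They differed 5.13-fold from each other, and 15.3% of tested genes differed more between these libraries. Its log2 fold change was -0.69 ± 0.84 (SE, n = 2 each; 95% interval -2.83 to 1.45; adjusted p = 0.568, limma), an interval that still holds decreases of the size seen for Id3. Without dTAG-13 replicate 1 the value was 0.49, and without dTAG-13 replicate 2 it was -1.87.

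In the authors' deposited table the log2 ratio of treated over DMSO was -4.81 for Hes1 (adjusted p = 1.4e-25), -3.73 for Id2 (adjusted p = 0.00116) and -1.996 for Id3 (adjusted p = 0.240). In the same authors' deposited table Hey1 had -1.25, Id4 -0.62, Id1 -0.26 and Hes6 0.77, with adjusted p-values between 0.411 and 1. Of the 16281 genes in the authors' deposited table, 8.47% were lower at an adjusted p under 0.05, as were 2 of the 7, and 16% differed in either direction.

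Neither Hes1 nor Id2 passed with any 1 library left out. A group then has 1 library. With either dTAG-13 library left out, every call among all genes was lost, so that loss does not single out these 2 genes. With either DMSO library left out, some calls among all genes were kept, but not those of Hes1 and Id2. With 1 library left out, the log2 fold changes were -5.20 to -4.31 for Hes1 and -4.64 to -3.16 for Id2. Scaling the libraries to equal levels of a list of oocyte transcripts put the all-gene median of log2 fold changes at 2.03. Under it Hes1 had -2.51 (adjusted p = 0.0206) and Id2 had -1.65 (adjusted p = 0.0800). Scaling on mitochondrially encoded protein genes moved that median to 0.79, gave Hes1 -3.81 and Id2 -2.96, both with an adjusted p of 0.0618, and called 0 genes of all tested by limma, with 5565 at an unadjusted p under 0.05. Id2 also missed the threshold without a variance trend (adjusted p = 0.0789).

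Fold changes are also given relative to the median of all genes under the same scaling. A scaling moves every gene of a library by about the same amount, so these relative values are alike by construction and say nothing about which scaling is right. The relative log2 fold change of Hes1 was -4.65 with the authors' scaling, -4.55 with the oocyte scaling and -4.61 with the mitochondrial scaling. In the same order, the relative log2 fold changes of Id2 were -3.80, -3.69 and -3.75, and those of Id3 were -1.996, -1.89 and -1.95. Hey1 had -1.27, -1.16 and -1.22. Id1 and Id4 had values between -0.59 and -0.44, and Hes6 had values between 0.73 and 0.83.

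**Figure D2:**
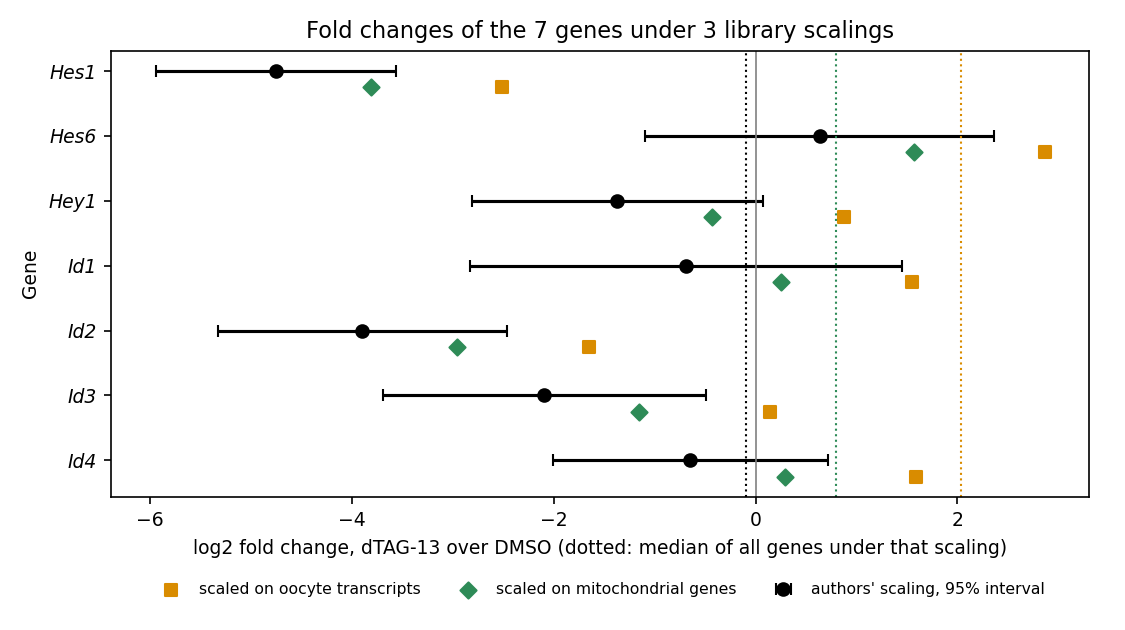
Log2 fold changes of dTAG-13 over DMSO for the 7 genes with the authors' scaling (black, bars are 95% limma intervals), with libraries scaled on oocyte transcripts (orange) and on mitochondrial genes (green); dotted lines are the median of all genes under each scaling. Hes1 and Id2 are left of 0 under all 3 scalings, whereas Hey1, Id1, Id3 and Id4 are right of 0 under the oocyte scaling.

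Ratios between these genes within 1 library are free of any library scaling. The ratio of Id2 to Id1 was 4.37 and 0.305 under dTAG-13, against 9.95 and 11.5 under DMSO. The ratio of Id2 to Id4 was 3.18 and 1.81 under dTAG-13, against 21.5 and 24.2 under DMSO, and the ratio of Id2 to Id3 was 4.75 and 3.87 under dTAG-13 and 11.8 and 18.7 under DMSO. Id2 was thus lower relative to each of the other Id genes in both dTAG-13 libraries than in either DMSO library. Since Id2 had the lowest log2 fold change of the Id genes, lower mean ratios follow from the values above and are no further evidence.

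Hes1 had a lower log2 fold change than Hey1 and Hes6, and showed the same order against them with the same limit. The ratio of Hes1 to Hey1 was 0.122 and 0.444 under dTAG-13, against 2.68 and 2.22 under DMSO, and that of Hes1 to Hes6 was 0.320 and 1.17 under dTAG-13 and 30.2 and 22.0 under DMSO. The ratio of Hes1 to Id2 overlapped between groups, with 0.174 and 0.692 in dTAG-13 libraries and 0.984 and 0.403 in DMSO libraries. Over these 6 pairs, the 5 without overlap had a two-sided exact permutation p of 0.333 each (0.40 adjusted over the pairs), which is the smallest p that 2 against 2 libraries allow, so these differences could not pass a test by themselves.

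**Figure D3:**
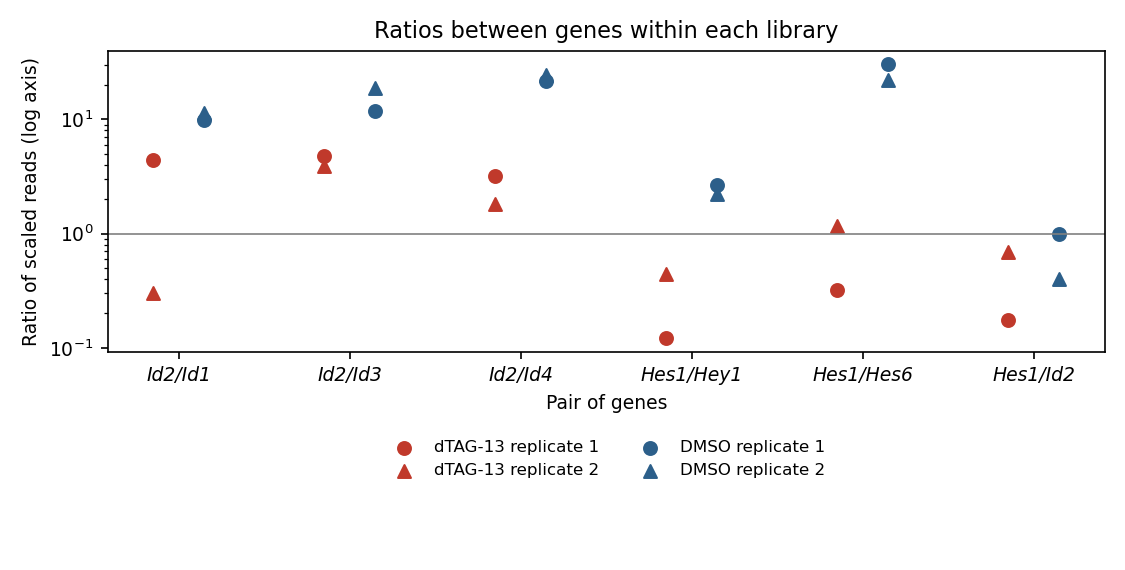
Ratio of scaled reads between pairs of genes within each library (log axis), dTAG-13 libraries in red and DMSO libraries in blue. For the 5 pairs that set Id2 against another Id gene or Hes1 against Hey1 or Hes6, both dTAG-13 points lie below both DMSO points, and for Hes1 over Id2 they overlap.

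Levels were compared between genes as scaled reads per kilobase of annotated exon. In DMSO embryos Id2 had a mean level of 2626 and Hes1 of 2056 per kilobase, followed by Hey1 (513), Id1 (513), Id3 (239), Hes6 (86.6) and Id4 (72.4). Neighbours in this order overlapped between libraries for Id2 and Hes1, for Hey1 and Id1, and for Hes6 and Id4. In dTAG-13 embryos the order was Id1 (429), Hey1 (216), Id2 (198), Hes6 (148), Hes1 (73.4), Id3 (60.0) and Id4 (47.2), and every pair of neighbours overlapped.

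Among all genes of a library ranked per kilobase, Hes1 was at the 63.3 and 68.0 percentiles in dTAG-13 libraries and at the 97.7 and 95.4 percentiles in DMSO libraries. Id2 was at 82.9 and 70.6 under dTAG-13 and at 97.3 and 97.8 under DMSO. Summed over the 4 Id genes, the level was 572 and 895 per kilobase under dTAG-13, against 3076 and 3826 under DMSO. Id2 made up 50.9% and 11.6% of that sum under dTAG-13, against 73.8% and 78.0% under DMSO, and Id1 made up 24.4% and 80.2% under dTAG-13, and 15.6% and 14.3% under DMSO. Hes1 made up 10.4% and 29.7% of the summed level of Hes1, Hes6 and Hey1 under dTAG-13, against 78.7% and 75.0% under DMSO.

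The 2 named genes with the most similar profile over the 4 libraries, by root mean square difference of centred log2 values, were Zfp628 (0.16) and Zfp273 (0.19) for Hes1, both with at most 43.2 scaled reads in any library. For Id2 they were Lyrm5 (0.08) and Kpna7 (0.15), the oocyte importin alpha and a gene of the oocyte scaling list, which had 311 and 104 scaled reads under dTAG-13 against 1999 and 3506 under DMSO. For Id3 they were Dusp5 (0.07), a phosphatase of ERK, and Trpa1 (0.07), and for Hey1 they were Fabp3 (0.08) and Crabp1 (0.11). For Id1 they were Stra8 (0.14) and Eme2 (0.14), for Id4 Sh3pxd2a (0.04) and Oxct1 (0.04), and the closest for Hes6 was Pogz (0.05). With 4 libraries in 2 groups, such likeness describes the shape of 4 values.

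Lists of pathway genes and partners held 160 further genes, of which 136 were in the table and 122 were tested. Of these, 11 were lower and 6 higher, while 105 missed the threshold. Their median log2 fold change was -0.48, against -0.10 for all genes tested. The lists were chosen with earlier results of these data known and are described by counts. Of all genes tested, 18.7% were called in either direction. By direction, limma called 9.79% lower and 8.94% higher. Of the 15978 genes, edgeR called 1146 lower and 1026 higher, and DESeq2 called 2650 lower and 2406 higher. Every call in the lists was lost when either dTAG-13 library was left out, since limma then called 0 genes of all tested, with 3519 at an unadjusted p under 0.05 without replicate 1 and 3879 without replicate 2. The mitochondrial scaling also ended every call, and without a variance trend the calls of Lemd3, Neurod1 and Twist1 were left among the called genes named here. Rbpj, Tle4, Hes2, Hey2, Nrarp, Msx1, Smad7, Tcf12, Notch1, Notch2, Bmp2, Bmp4 and Bmp6 were named after their values were seen.

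**Figure D4:**
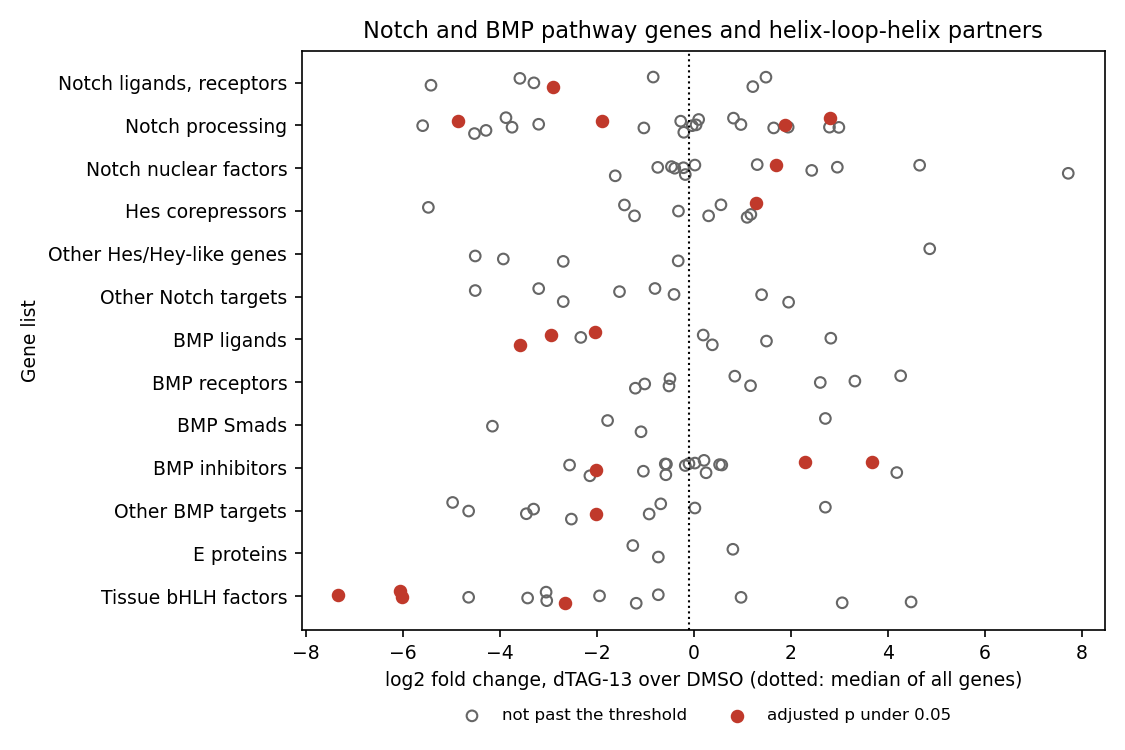
Log2 fold change of dTAG-13 over DMSO for each tested gene of the Notch, BMP and helix-loop-helix lists; each point is a gene, filled points have an adjusted p under 0.05 and the dotted line is the median of all genes. The 6 filled points on the right are Adam17, Poglut1, Ep300, Sirt1, Ppm1a and Lemd3, and genes in more than 1 list appear once per list.

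Among Notch ligands and receptors, 1 of 7 tested genes was lower and 0 were higher by limma, where an unadjusted p under 0.05 gave 1 higher and 2 lower, edgeR called 0, and DESeq2 called 1 higher and 2 lower. Jag1, the ligand that was lower, had 37.3 and 108 scaled reads under dTAG-13 against 506 and 463 under DMSO, a log2 fold change of -2.91 ± 0.71 (SE, n = 2 each; adjusted p = 0.0495, limma). That call was also lost without a filter, with a pseudocount of 0.5, under quantile normalization, without a variance trend, under the oocyte scaling (log2 fold change -0.68) and under the mitochondrial scaling. Dll3, a ligand-like protein that dampens Notch signalling, had 883 and 747 scaled reads under dTAG-13 against 289 and 289 under DMSO, higher in both libraries without passing (log2 fold change 1.49 ± 0.38, adjusted p = 0.0551). The receptors Notch1 and Notch2 had at most 3.49 scaled reads in dTAG-13 libraries and at most 22.8 in DMSO libraries, too few to be tested.

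Of 22 genes for Notch processing, 2 were higher and 2 lower (median -0.12). Psenen encodes a subunit of gamma-secretase, the protease that releases the Notch intracellular domain. Psenen had 31.1 and 74.6 scaled reads under dTAG-13 against 979.9 and 2096 under DMSO, a log2 fold change of -4.86 ± 0.69 (adjusted p = 0.0231, limma). The gene shares 119 exonic bases with U2af1l4 on the other strand, which had 809 and 658 scaled reads under dTAG-13 and 2231 and 3430 under DMSO, so reads in that stretch cannot be told apart. Adam17, a protease that sheds many surface proteins, rose by 1.89 ± 0.31 on the log2 scale, and Poglut1, which glycosylates Notch, rose by 2.81 ± 0.60. Adam17 shares 311 exonic bases with Iah1 on the other strand, with the same limit. The call of Poglut1 was lost with edgeR (adjusted p = 0.0535).

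Of 13 nuclear factors of the pathway, 1 was higher and 0 lower by limma (median 0.02), where an unadjusted p under 0.05 gave 3 higher and 0 lower, and edgeR and DESeq2 each gave 1 higher and 0 lower. Ep300, an acetyltransferase that joins the Notch complex, had 5915 and 7365 scaled reads under dTAG-13 against 2590.2 and 1604 under DMSO, and rose by 1.69 ± 0.34 (SE, n = 2 each; adjusted p = 0.0349, limma). Rbpj had 1075 and 976 scaled reads under dTAG-13 against 1866 and 1579 under DMSO, a log2 fold change of -0.74 ± 0.30 that did not pass. Of 9 corepressor genes of Hes proteins, Sirt1, a deacetylase, was the 1 that rose by limma, by 1.29 ± 0.25, and 0 were lower. An unadjusted p under 0.05 and DESeq2 each gave 2 higher and 2 lower, and edgeR gave 1 higher and 0 lower. The call of Sirt1 was lost under quantile normalization (adjusted p = 0.0603) and without a variance trend (adjusted p = 0.152). Sirt1 also shares 65 exonic bases with Gm16145 on the other strand, where reads cannot be told apart. Tle4 had 2143 and 1656 scaled reads under dTAG-13 against 765 and 907 under DMSO without passing (adjusted p = 0.0635).

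Among 5 tested relatives of Hes and Hey genes and among 8 other Notch targets, 0 passed by limma, edgeR or DESeq2, and at an unadjusted p under 0.05 each list had 1 higher and 0 lower. Hes2 had 96.4 and 112 scaled reads under dTAG-13 against 12.0 and 0 under DMSO, the opposite order to Hes1, and Hey2 had 79.6 and 0 under dTAG-13 and 348 and 118 under DMSO. Nrarp, a feedback inhibitor and sensitive readout of Notch signalling, had 121 and 500.0 scaled reads under dTAG-13 against 45.6 and 86.0 under DMSO (log2 fold change 1.95 ± 0.92, adjusted p = 0.182). The values of Nrarp and Hes1 thus lay on opposite sides of the DMSO values, and Nrarp did not pass.

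BMP ligands had 3 of 8 tested genes lower and 0 higher by limma, as with edgeR and DESeq2 and at an unadjusted p under 0.05. Over all genes the share lower was 9.79% by limma and 20.6% at an unadjusted p under 0.05. Bmp15 and Gdf9 are the growth factors that the oocyte secretes. Bmp15 had 3415 and 4325 scaled reads under dTAG-13 against 22395 and 39372 under DMSO, and fell by 2.95 ± 0.34 on the log2 scale (SE, n = 2 each; adjusted p = 0.0219, limma). Gdf9 fell by 2.04 ± 0.27, with 991 and 1022 scaled reads under dTAG-13 and 4122 and 4164 under DMSO. Bmp5 had 919 and 711 scaled reads under dTAG-13 against 7626 and 12459 under DMSO and fell by 3.59 ± 0.35. It shares 1878 of its 4025 exonic bases with Gm26903 on the other strand, so reads in that stretch cannot be told apart. Gm26903 had 5.60 and 4.88 scaled reads under dTAG-13 and 27.6 and 53.6 under DMSO. Under the oocyte scaling 1 of the 3 calls was left, as Bmp15 had a log2 fold change of -0.70 (adjusted p = 0.0940, limma) and Gdf9 was above 0 at 0.21, and without a variance trend 0 of the 8 ligands were called lower. Bmp2, Bmp4 and Bmp6 of the same list overlapped between groups.

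Of 9 BMP receptors and coreceptors, 0 passed by limma, edgeR or DESeq2, where an unadjusted p under 0.05 gave 2 higher and 0 lower. Bmpr2, the type II receptor, had 4047 and 4366 scaled reads under dTAG-13 against 5083 and 6886 under DMSO. In the other direction, Bmpr1a had 1405 and 1292 under dTAG-13 against 660 and 851 under DMSO. The median log2 fold change of the 9 genes was 0.85. Without overlap, 5 of the 9 were higher and 2 lower, against 32.2% and 34.5% of all genes. The 4 Smads of the pathway did not pass by limma or edgeR, with 2 lower at an unadjusted p under 0.05 and 1 lower with DESeq2. Smad5 had 84.6 and 146 scaled reads under dTAG-13 against 401 and 368 under DMSO (log2 fold change -1.78 ± 0.55, adjusted p = 0.0809), and Smad1 had 3.73 and 52.3 under dTAG-13 and 153 and 519 under DMSO (log2 fold change -4.15 ± 1.43, adjusted p = 0.0989).

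Of 17 inhibitors of BMP signalling, 2 were higher, 1 lower and 14 did not pass. Ppm1a, a phosphatase that acts on Smads among other proteins, had 45168 and 54560 scaled reads under dTAG-13 against 10507 and 9762 under DMSO, and rose by 2.29 ± 0.21 on the log2 scale (adjusted p = 0.0219, limma). Lemd3, an inner nuclear membrane protein that binds Smads, rose by 3.68 ± 0.39, with 1586 and 1939 scaled reads under dTAG-13 and 133 and 138 under DMSO. Bambi, a decoy receptor that is itself induced by BMP, had 1135 and 822 scaled reads under dTAG-13 against 3544 and 4302 under DMSO and fell by 2.01 ± 0.32, but had a log2 fold change above 0 (0.23) under the oocyte scaling. Of 10 tested other BMP targets, limma and edgeR called 1 lower, which for limma was Bambi, DESeq2 called 2 lower, an unadjusted p under 0.05 gave 3 lower, and the oocyte scaling gave 0 lower. The count higher was 0 by limma, edgeR, DESeq2 and an unadjusted p under 0.05. Msx1 had 17.4 and 127 scaled reads under dTAG-13 against 245 and 317 under DMSO without passing, and Smad7 overlapped between the groups.

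E proteins, the partners that Id proteins bind, were examined next. None of the 3 passed by limma, edgeR or DESeq2, with 0 at an unadjusted p under 0.05. Tcf12 had 746 and 876 scaled reads under dTAG-13 against 1633 and 1105 under DMSO, a log2 fold change of -0.73 ± 0.36 that did not pass. Of 14 tested tissue-specific basic helix-loop-helix factors, 4 were lower and 0 higher by limma, with 6 lower at an unadjusted p under 0.05, 1 lower with edgeR and 4 lower with DESeq2. Over all genes the share lower was 9.79% by limma and 20.6% at an unadjusted p under 0.05. Among the 14 factors the count higher was 0 by limma, edgeR, DESeq2 and an unadjusted p under 0.05. Their median log2 fold change was -2.85, or -3.05 with 5 genes without reads in the dTAG-13 group set to the bound of 3 reads per library.

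Neurod1 and Twist1 had no reads in dTAG-13 libraries, against 187 and 136 scaled reads of Neurod1 and 104 and 39.0 of Twist1 in DMSO libraries, so that they were at least 81.8-fold and at least 36.2-fold lower against that bound. Sohlh2, a germ cell factor of early oocytes, had 1.87 and 0 scaled reads under dTAG-13 against 191 and 64.9 under DMSO (adjusted p = 0.0408, limma). Ascl2, which is needed in the placenta, had 80.9 and 200.1 scaled reads under dTAG-13 against 658 and 1005 under DMSO, a log2 fold change of -2.67 ± 0.62 (adjusted p = 0.0455). The calls of Twist1, Ascl2 and Sohlh2 were lost with edgeR (adjusted p = 0.0616, 0.0585 and 0.0705). Those of Ascl2 and Sohlh2 were also lost under quantile normalization (adjusted p = 0.0501 and 0.0603) and under the oocyte scaling (adjusted p = 0.581 and 0.0664), where Ascl2 had a log2 fold change of -0.43, and that of Ascl2 without a filter (adjusted p = 0.0540).

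The libraries held 38112685 and 33897568 reads in genes under dTAG-13 and 18923479 and 16522506 under DMSO. Over genes, which do not count as replicates, Pearson's r was 0.866 between dTAG-13 libraries, 0.791 between DMSO libraries and 0.637 to 0.718 across groups. Markers of 2-cell embryos summed to 85929 and 92297 scaled reads under dTAG-13, against 230858 and 228079.5 under DMSO. By limma 7 of these 11 markers were lower, against 9.79% of all genes. Markers of cumulus and granulosa cells, which express Id genes, had 1 of 6 higher (Amhr2) and 0 lower and summed to 2418 and 2240.0 under dTAG-13, against 1593 and 638 under DMSO. Amhr2 alone had 1872 and 1720 scaled reads under dTAG-13 and 504 and 260 under DMSO. Ptx3, a marker of expanded cumulus, had 0 reads in both dTAG-13 libraries and 34.8 and 50.3 scaled reads under DMSO. Lum of the stroma and Hba-a1 of the blood list were lower, and Vim and Lum had 0 reads under dTAG-13. In the stroma and blood lists, 1 of 5 and 1 of 4 tested markers were called lower and 0 higher. In the other direction, Pdgfra of the stroma list had 77.8 and 158 scaled reads under dTAG-13 against 0 and 9.74 under DMSO. Cd68 of the blood list had 330 and 184 under dTAG-13 against 34.8 and 71.4 under DMSO, and neither passed. These markers were named after their values were seen. Under dTAG-13 the summed scaled reads were 7854 and 7057 for oviduct, 159 and 245 for stroma, 111 and 298 for endothelium, 572 and 427 for blood, 29.9 and 27.2 for sperm and 2247 and 2544 for later blastomere markers. Under DMSO they were 4349 and 3932 for oviduct, 143 and 446 for stroma, 420.3 and 693 for endothelium, 1159 and 1153 for blood, 159.7 and 97.4 for sperm and 2358 and 1026 for later blastomere markers. Several of these sums rest mostly on 1 gene and so do not describe a cell type. Epcam alone had 7677 and 6922 scaled reads of the oviduct list under dTAG-13, and 4206 and 3833 under DMSO. Hba-a1 had 1062 and 1041 of the blood list under DMSO. Tfap2c had 1483 and 1483 of the later blastomere list under dTAG-13. The part of cells of the marker lists in the values of the Hes and Id genes was not tested.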

How the data were processed

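The authors deposited, per the file headers and per the labels, reads per gene divided by a size factor of each library, a signal called scaled reads here. They also deposited their own comparison, with log2 ratios and p-values. The submitters' processing notes name bcl2fastq, Picard, HTSeq, DESeq and mm10, but the aligner is not given in the sources used here. Low values are whole multiples of 1 read (100% of values within 0.0001), so reads were recovered by division.

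Genes averaging 10 or more scaled reads were tested on log2(scaled reads + 1) with limma 3.58.1 in R 4.3.3, with a variance trend and Benjamini-Hochberg adjustment over all of them. A fold change on this scale understates changes of low genes. Alternatives were edgeR 4.0.16 and DESeq2 1.42.0 on recovered reads, other pseudocounts, filters and scalings, a replicate block and leaving out each library. The method was tested on simulated data. Depth limits low counts, and a gene without reads was given a bound of 3 reads per library, which covers counting error only.

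The members and lists were chosen with earlier results of these data known. Named genes are the 7 members, the called genes of each list (at most 4 by p), up to 2 ligands, receptors or Smads with the highest value, and the 2 closest profiles of each member; genes that the rule names and the text does not are not reported here, though counts include them. Same-numbered libraries did not deviate together (r = -0.0142 across genes), so the numbers were not taken as pairs. Exon lengths and gene coordinates are from GENCODE M21.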

Additional observations from a re-analysis of the deposited data

How the results depend on the processing

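With limma, 1428 genes were higher and 1565 lower in dTAG-13 embryos. DESeq2 called 2406 and 2650, no variance trend 209 and 380, the oocyte scaling 6523 and 352 (5.12% of calls lower, against 52.3% with the authors' scaling), and the mitochondrial scaling 0 and 0. Leaving out 1 library gave 0 to 360 higher and 0 to 773 lower. Counts with edgeR, quantile normalization and the other pseudocounts and filters were within 1.5 times. Of the 7 genes, 1 was higher (Hes6) and 1 lower with the oocyte scaling, 1 was lower without a variance trend, 0 with the mitochondrial scaling and 0 to 0 with 1 library left out; the cause was not tested.

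Signs turned under the oocyte scaling for Hey1 (0.87), Id1 (1.55), Id3 (0.14), Id4 (1.59), Bambi (0.23) and Gdf9 (0.21), and under the mitochondrial scaling for Id1 (0.25) and Id4 (0.29). The median of all genes was 2.03 under the oocyte scaling and 0.79 under the mitochondrial scaling. With 1 library left out, Id1 ranged over -1.87 to 0.49 and Hes6 over -0.040 to 1.31, both signs turning without dTAG-13 replicate 1. These are log2 fold changes, and the cause was not tested. With the replicate number as a block, limma called 1855 genes higher and 1832 lower, and 2 of the 7 genes lower (Hes1, adjusted p = 0.00319, and Id2, adjusted p = 0.00437), while Twist1 lost its call (adjusted p = 0.0599). With 2 libraries a group, the depth and the spread between pools limit what can be called.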
